A study of Mus musculus with 24 samples.

Results

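Prostaglandin E2 keeps the fetal ductus arteriosus (DA) open. It acts through 4 E prostanoid receptors, EP1 to EP4, encoded by Ptger1 to Ptger4, and the DA depends mainly on EP4, which relaxes smooth muscle by raising cyclic AMP (cAMP). EP2 also raises cAMP, EP3 mostly lowers it and EP1 raises calcium. The prostaglandin itself is made from arachidonic acid by a cyclooxygenase (Ptgs1, constitutive, or Ptgs2, inducible) and a terminal synthase (Ptges), and it is removed by the uptake carrier encoded by Slco2a1 followed by oxidation by hydroxyprostaglandin dehydrogenase (Hpgd). Ptgir encodes the receptor for the related mediator prostacyclin, which raises cAMP as well.

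The 10 genes described here are Ptger1, Ptger2, Ptger3, Ptger4, Ptgir, Ptgs1, Ptgs2, Ptges, Hpgd and Slco2a1, taken by symbol from the 54752 genes of the count table. All 10 were found, and 9 passed the filter on low counts and were tested among 16463 genes. Ptger2 did not pass. Expression was measured by RNA-Seq of the DA and ascending aorta of E18.5 mouse embryos on a C57/Black6 background, before the DA closes. The groups were 7 control DA, 5 Prdm6-deficient DA, 6 control aorta and 5 Prdm6-deficient aorta libraries. The main comparison of this RNA-Seq was of Prdm6-deficient with control DA.

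Prdm6-deficient embryos were Wnt1Cre;PRDM6f/f. In these, Cre is driven by the Wnt1 promoter in neural crest cells, and cells of other origin in the vessel keep Prdm6. Control embryos were littermates of genotype PRDM6wt/f without Cre, except for control DA replicate 3, which was PRDM6wt/wt. The embryo that gave control DA replicate 2 and control aorta replicate 3 was Wnt1Cre;PRDM6wt/wt. Prdm6-deficient DA replicates 1 and 2 each pooled 2 embryos, and replicate 4 of that group was not analysed here. By their numbers the animals fall into 2 runs, called the first and second run. In 8 embryos both vessels were sequenced as libraries of a single embryo, and the 2 embryos pooled in Prdm6-deficient DA replicate 2 also gave Prdm6-deficient aorta replicates 1 and 2.

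Total counts ranged from 15163974 to 22610547 per library. At these depths 3 counts amount to 0.133 to 0.198 CPM (counts relative to the size of the library). Values at or below 3 counts were taken as the floor. Prdm6 itself, counted over the whole gene and not by floxed exon, stood at 67.5% of control in Prdm6-deficient DA and 62.0% in Prdm6-deficient aorta, and its values did not overlap between genotypes in either vessel. Summed over 8 smooth muscle markers, the level was 13721 to 24026 CPM in control DA, 9956 to 12161 in Prdm6-deficient DA, 8658 to 12256 in control aorta and 9594 to 11309 in Prdm6-deficient aorta, with none of the 8 at or below 3 counts in a whole group. Control aorta replicate 4 stood apart from its group in Ptger4 and in melanocyte markers, as given below.

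Of the E prostanoid receptor genes, Ptger4 was by far the most abundant in control DA and was the one that fell without Prdm6, to 11.4% of its control level. Ptger3, which was low in both control vessels, rose in both without Prdm6, and Ptger1 rose in the aorta. For the synthesis and clearance genes and for Ptgir, no difference between genotypes passed the thresholds in either vessel. A gene was called when its adjusted p from edgeR's quasi-likelihood test was below 0.01 and its log2 fold change was beyond 0.5. All levels below are CPM scaled by the TMM method unless a value per kilobase is named.

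The promoters of the receptor genes that moved in the DA are shown because these 2 genes carry the calls in the DA. RefSeq promoters were at hand for 9 of the 10 genes, all but Ptger1. The sequences are the 250 bases before the RefSeq start (GRCm38.p6), 5′ to 3′ on the gene's strand, with matches to the motifs listed in the next paragraph in capitals.
Ptger4, chr15:5244188-5244437, minus strand: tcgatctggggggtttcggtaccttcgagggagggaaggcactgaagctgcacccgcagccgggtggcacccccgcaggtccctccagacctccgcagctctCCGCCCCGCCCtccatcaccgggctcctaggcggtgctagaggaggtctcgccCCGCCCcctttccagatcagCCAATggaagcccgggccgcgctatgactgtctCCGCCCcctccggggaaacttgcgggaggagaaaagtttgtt
Ptger3, chr3:157566626-157566875, plus strand: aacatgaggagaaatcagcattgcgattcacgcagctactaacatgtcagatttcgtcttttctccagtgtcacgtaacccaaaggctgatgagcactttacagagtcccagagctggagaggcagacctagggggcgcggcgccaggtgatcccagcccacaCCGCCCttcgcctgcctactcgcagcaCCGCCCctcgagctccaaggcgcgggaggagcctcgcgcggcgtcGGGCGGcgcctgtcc

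Searched on both strands, the Ptger4 window held the GC box GGGCGG at 4 places, all on the opposite strand, the 2 farthest from the start sharing a base, and the CCAAT box 75 bases before the start. The Ptger3 window held GGGCGG at 3 places, 2 of them on the opposite strand, and lacked the CCAAT box. The GC box GGGCGG was present in 7 of the 9 promoters and in 32.7% of all 32851 windows of the same length, and CCAAT in 33.85% of all windows. Neither window held TATAAA (12.4% of all windows), the cAMP response element TGACGTCA (1.55%), the AP-1 motif TGANTCA (6.75%), the TEAD motif GGAATG (12.6%) or the SRF-binding CArG box (1.47%). GC made up 66.8% of the Ptger4 window and 62.0% of the Ptger3 window, with a median of 52.4% over all windows.

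Ptger4 (ENSMUSG00000039942.15, chromosome 15, 5206661 to 5244187, minus strand of mm10) encodes EP4. Its level in control DA replicates 1 to 7 was 158, 164, 256, 134.1, 251, 160.4 and 239 CPM. In Prdm6-deficient DA replicates 1, 2, 5, 6 and 7 it was 19.6, 26.1, 13.2, 31.1 and 21.1 CPM. Every Prdm6-deficient DA library was thus far below every control DA library. In control aorta replicates 1 to 6 the level was 21.97, 26.9, 25.2, 55.9, 32.2 and 22.5 CPM, and in Prdm6-deficient aorta replicates 1 to 5 it was 30.7, 31.0, 19.1, 25.3 and 23.3 CPM. These 2 aortic groups overlapped with each other and with Prdm6-deficient DA, so that control DA was the only group standing apart.

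The mean of Ptger4 was 195 ± 51.8 CPM (SD, n = 7) for control DA against 22.2 ± 6.77 CPM (SD, n = 5) in Prdm6-deficient DA, a log2 change of -3.13 (SE 0.25, 95% interval -3.64 to -2.63, adjusted p by edgeR = 2.0e-09). Within the first run, with 3 Prdm6-deficient and 2 control libraries, the log2 fold change was -3.30 (adjusted p by edgeR = 0.00117), and within the second run, with 2 and 5 libraries, -3.00 (adjusted p by edgeR = 6.1e-05). In bulk tissue, fewer cells of a type and less RNA per cell cannot be told apart. Of the 8 smooth muscle markers 6 were called lower in Prdm6-deficient DA, the median of the 8 being -0.72 on the log2 scale, and the part of this shift in the Ptger4 result was not tested. Melanocyte markers moved the same way: summed over 5 genes they were at 27.8 to 218 CPM in control DA and 0 to 1.56 CPM in Prdm6-deficient DA, where Dct, Tyrp1 and Tyr were at or below 3 counts in every library, and 4 of the 5 were called lower. Their part was not tested either.

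In the aorta the mean of Ptger4 was 30.8 ± 12.8 CPM (SD, n = 6) in controls and 25.9 ± 5.05 CPM (SD, n = 5) without Prdm6, a log2 change of -0.25 (SE 0.23, 95% interval -0.72 to 0.22, adjusted p by edgeR = 0.78). Control aorta replicate 4, at 55.9 CPM, was above the 21.97 to 32.2 CPM of the other control aorta libraries, and without it the log2 fold change was 0.00 (adjusted p by edgeR = 0.999). The same library had a summed melanocyte marker level of 13.8 CPM, the highest of its group, whose median was 1.70 CPM. The difference of the Prdm6 effect between DA and aorta was -2.88 on the log2 scale (SE 0.32, adjusted p by edgeR = 2.4e-06), and -3.14 without control aorta replicate 4. Over the 8 embryos with a library of their own for each vessel, with the embryo as a block, it was -2.96 (adjusted p by edgeR = 0.0026). The only Prdm6-deficient embryos among these were those of Prdm6-deficient DA replicates 5 and 7.

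Between the control vessels, Ptger4 was higher in the DA by 2.66 on the log2 scale (SE 0.22, adjusted p by edgeR = 3.6e-09), that is 6.32-fold. Within the second run it was 2.56 (adjusted p by edgeR = 2.0e-06), and with the embryo as a block 2.63 (adjusted p by edgeR = 3.8e-06). Between the Prdm6-deficient vessels the log2 difference, DA minus aorta, was -0.22 (SE 0.24, 95% interval -0.72 to 0.28, adjusted p by edgeR = 0.87). Of the 8 smooth muscle markers 6 were called higher in the control DA of this pair of vessels, and their part in this difference was not tested. Melanocyte markers, summed over 5 genes, were at 27.8 to 218 CPM in control DA and 0.353 to 13.8 CPM in control aorta, with 3 of the 5 called higher in the DA, and their part was not tested either. The comparisons of genotypes and of vessels share the control DA libraries. Ptger4 shares 82 exonic bases, 1.23% of its own, with Ttc33 on the other strand. The level of Ttc33 was 14.3 to 29.6 CPM over Prdm6-deficient DA and 21.5 to 24.9 CPM over control DA. A pseudogene, Gm15937, overlaps 15.3% of its exonic bases, also on the opposite strand.

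**Figure D1:**
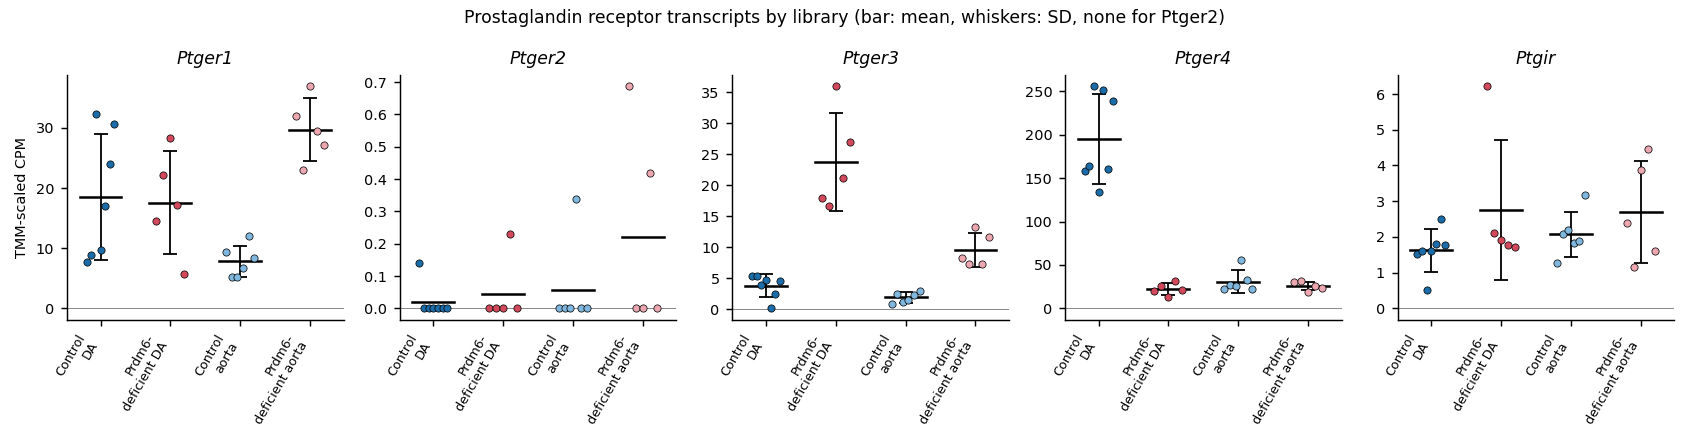
Prostaglandin receptor transcripts in TMM-scaled CPM (y axes, 1 scale per gene) in each of the 23 libraries, by group. Points are libraries, bars are means and whiskers are SDs (none drawn for Ptger2). Ptger4 is high only in the 7 control DA libraries (134.1 to 256 CPM), Ptger3 is higher without Prdm6 in both vessels, and Ptger1 in Prdm6-deficient aorta (22.95 to 37.0 CPM) is above control aorta.

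Ptger3 (ENSMUSG00000040016.16, chromosome 3, 157566892 to 157645888, plus strand) encodes EP3. In control DA replicates 1 to 7 it was at 5.29, 5.41, 3.89, 4.75, 0.106, 2.40 and 4.58 CPM, and in Prdm6-deficient DA replicates 1, 2, 5, 6 and 7 at 18.0, 16.7, 36.1, 21.2 and 26.9 CPM. Every Prdm6-deficient library was above every control library. Control DA replicate 5 was at or below 3 counts, and the other control DA libraries were above that level. The log2 fold change in the DA was 2.65 (SE 0.43, 95% interval 1.78 to 3.53, adjusted p by edgeR = 6.8e-05), from a mean of 3.77 ± 1.91 CPM (SD, n = 7) to 23.8 ± 7.92 CPM (SD, n = 5). Within the first and the second run it was 2.43 and 2.67, neither of them called (adjusted p by edgeR = 0.0163 and 0.021).

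In the aorta, Ptger3 was at 0.808, 2.50, 1.18, 1.49, 2.25 and 2.97 CPM in control replicates 1 to 6, and at 8.27, 7.19, 13.3, 7.21 and 11.6 CPM in Prdm6-deficient replicates 1 to 5. Again the genotypes did not overlap. The log2 fold change was 2.34 (SE 0.46, 95% interval 1.41 to 3.28, adjusted p by edgeR = 0.0014). Within the second run it was 2.17 and not called (adjusted p by edgeR = 0.0745), and the first run holds 1 control aorta library, too few for a value. The difference of the Prdm6 effect between DA and aorta was 0.31 on the log2 scale and not called (SE 0.62, 95% interval -0.96 to 1.58, adjusted p by edgeR = 0.89). Between the Prdm6-deficient vessels the log2 difference, DA minus aorta, was 1.32 with no overlap (SE 0.46, adjusted p by edgeR = 0.23, not called). Between the control vessels the log2 difference was 1.01, and the libraries overlapped (SE 0.42, adjusted p by edgeR = 0.14). In both vessels, Schwann and neuronal markers were higher without Prdm6 in the median (log2 fold change 1.10 in the DA and 1.15 in the aorta over 9 tested markers, with 1 called in each). Summed over 10 markers, their ranges overlapped in the DA (24.6 to 186 CPM in controls and 79.8 to 148 CPM without Prdm6) and not in the aorta (32.9 to 51.2 CPM and 53.8 to 137 CPM). Th was at or below 3 counts in all Prdm6-deficient DA libraries, and the part of these markers in the Ptger3 result was not tested.

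Ptger1 (ENSMUSG00000019464.6, chromosome 8, 83666678 to 83672753, plus strand) encodes EP1. Levels were estimated by RSEM with its default settings, which do not use strand, and the level of Ptger1 is uncertain for that reason. In control aorta replicates 1 to 6 Ptger1 was at 9.34, 5.25, 5.29, 6.75, 12.0 and 8.44 CPM, and in Prdm6-deficient aorta replicates 1 to 5 at 32.0, 22.95, 37.0, 29.6 and 27.2 CPM. All Prdm6-deficient aortas were above all control aortas, with a log2 change of 1.92 (SE 0.36, 95% interval 1.18 to 2.66, adjusted p by edgeR = 9.5e-04). Within the second run the log2 fold change was 1.71 and not called (adjusted p by edgeR = 0.0316). Endothelial markers summed over 10 genes were higher in the same contrast (728 to 1140.1 CPM in control and 1190 to 1412 CPM in Prdm6-deficient aorta, with 3 of the 10 called) and leukocyte markers summed over 12 genes lower (168 to 332 CPM and 101 to 157 CPM, with 1 of the 12 called). None of these markers was at or below 3 counts throughout a group, and their part in the aortic results was not tested.

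In the DA, Ptger1 ranged widely within each genotype. It was at 7.76, 8.85, 32.3, 9.63, 17.0, 24.0 and 30.6 CPM in control replicates 1 to 7 and at 14.5, 22.3, 28.3, 17.2 and 5.64 CPM in Prdm6-deficient replicates 1, 2, 5, 6 and 7. The log2 fold change was -0.08 (SE 0.34, 95% interval -0.78 to 0.63, adjusted p by edgeR = 0.93). The difference of the Prdm6 effect between DA and aorta was -2.0 (SE 0.50, adjusted p by edgeR = 0.015), not called by edgeR, and DESeq2 called it (-2.01, adjusted p = 0.000786). Control DA was above control aorta by 1.24 on the log2 scale (SE 0.34, adjusted p by edgeR = 0.014, not called), and DESeq2 called this difference too (1.26, adjusted p = 0.000957).

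Ptger2 (ENSMUSG00000037759.6, chromosome 14, 44988195 to 45003820, plus strand), which encodes EP2, the other cAMP-raising receptor for prostaglandin E2, was at the edge of detection. It was at or below 3 counts in all 7 control DA libraries, in 4 of 5 Prdm6-deficient DA libraries, in 5 of 6 control aorta libraries and in 3 of 5 Prdm6-deficient aorta libraries. Its highest value was 0.689 CPM, in Prdm6-deficient aorta replicate 1. A difference between groups was not detectable at this depth.

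Ptgir (ENSMUSG00000043017.9, chromosome 7, 16906490 to 16910905, plus strand) was low in every group. It ranged from 0.50 to 2.51 CPM (median 1.62) in control DA and from 1.26 to 3.16 CPM (median 1.98) in control aorta. In Prdm6-deficient DA 4 libraries were at 1.72 to 2.10 CPM and replicate 1, a pool of 2 embryos, at 6.23 CPM. The log2 fold change in the DA was 0.76 (SE 0.45, adjusted p by edgeR = 0.33) with that library and 0.21 without it. In the aorta it was 0.38 (SE 0.47, adjusted p by edgeR = 0.87).

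Compared per length, the make-up of the E prostanoid receptor transcripts differed between groups. Here a level is CPM per kilobase of the union of a gene's exons. In control DA, Ptger4 made up 88.0% ± 3.48 (SD, n = 7) of the summed level of the 4 genes, Ptger1 9.75% ± 3.97, Ptger3 2.23% ± 1.38 and Ptger2 0.0146% ± 0.0387. In Prdm6-deficient DA, Ptger4 made up 32.0% ± 9.99 (SD, n = 5), Ptger3 39.0% ± 10.7 and Ptger1 28.9% ± 10.8. The library with the smallest Ptger4 share in control DA was at 83.4% and the library with the largest in Prdm6-deficient DA at 40.3%. In the aorta, Ptger4 made up 71.1% ± 8.69 (SD, n = 6) in controls and 35.5% ± 8.01 (SD, n = 5) without Prdm6, where Ptger1 made up 49.0% ± 5.51. The Ptger1 part carries the doubt over strand, and so does every other share, since Ptger1 is in the summed level. In the aorta the share of Ptger4 fell while its own log2 fold change was -0.25 and not called.

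The summed level of the 4 genes was 33.4 ± 9.11 CPM per kilobase (SD, n = 7) in control DA and 10.8 ± 1.98 (SD, n = 5) in Prdm6-deficient DA. In the aorta it was 6.41 ± 1.96 (SD, n = 6) in controls and 11.1 ± 0.904 (SD, n = 5) without Prdm6. In the DA the sum was smaller without Prdm6, and the genotypes did not overlap (22.8 to 45.2 and 8.76 to 13.5 CPM per kilobase), nor did they with the longest transcript in place of the union of exons (38.9 to 76.0 and 13.3 to 19.6). In the aorta the libraries were at 4.97 to 9.97 CPM per kilobase in controls and 10.1 to 12.1 without Prdm6, but by the longest transcript they overlapped, at 8.04 to 16.8 and 15.1 to 17.5. Ptger1, whose level is uncertain, went from a mean of 1.44 to 5.45 CPM per kilobase in the aorta.

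**Figure D2:**
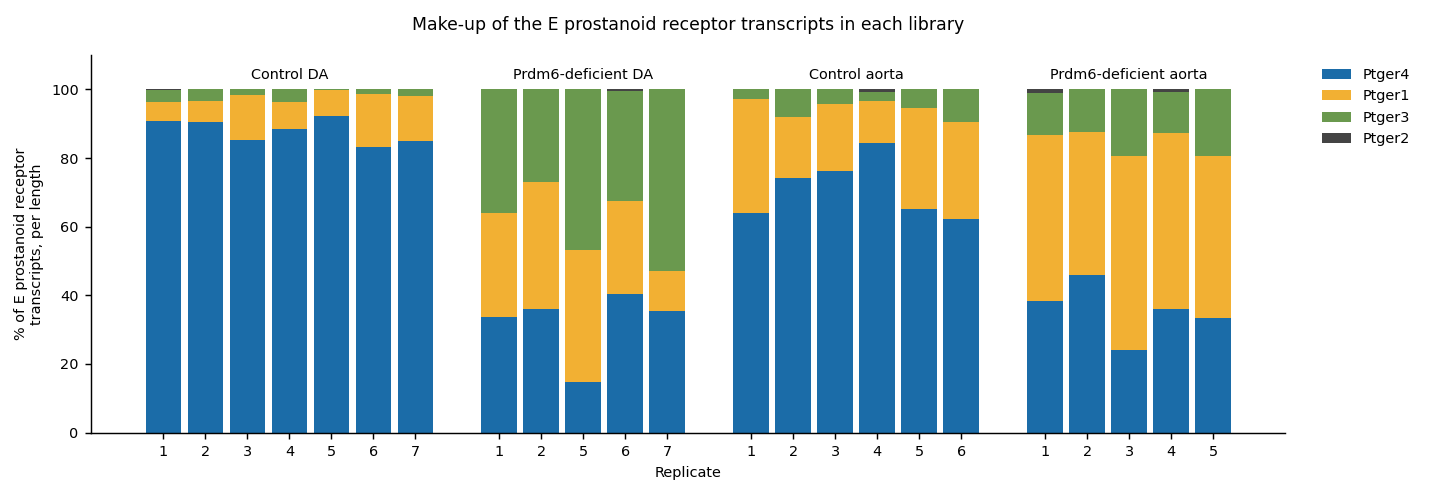
Share of each E prostanoid receptor gene in their summed level per kilobase (y axis, percent) in each library (x axis, replicate number within its group). Ptger4 makes up 83.4% to 92.4% in control DA, 14.7% to 40.3% in Prdm6-deficient DA, 62.1% to 84.3% in control aorta and 23.9% to 46.0% in Prdm6-deficient aorta. Every share depends on the level of Ptger1, which is uncertain.

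The cyclooxygenases did not pass the threshold in any comparison. Ptgs1 (ENSMUSG00000047250.13, chromosome 2, 36230426 to 36252272, plus strand) ranged from 8.58 to 19.8 CPM (median 15.2) in control DA, and it was at 10.3, 13.5, 10.9, 19.3 and 7.51 CPM in Prdm6-deficient DA replicates 1, 2, 5, 6 and 7. The log2 fold change was -0.25 (SE 0.22, 95% interval -0.71 to 0.21, adjusted p by edgeR = 0.56). Ptgs2 (ENSMUSG00000032487.8, chromosome 1, 150100031 to 150108227, plus strand) was lower in level. It was at 1.67, 6.22, 2.0, 4.01, 4.63, 1.95 and 2.36 CPM in control DA replicates 1 to 7, and at 0.748, 1.99, 1.24, 0.402 and 0 CPM in Prdm6-deficient DA replicates 1, 2, 5, 6 and 7. These ranges overlapped, with 1 Prdm6-deficient library inside the control range, and the log2 fold change of -1.89 did not pass (SE 0.67, 95% interval -3.26 to -0.52, adjusted p by edgeR = 0.064). In the aorta Ptgs2 had a mean of 3.52 ± 1.22 CPM (SD, n = 6) in controls and 1.58 ± 0.987 CPM (SD, n = 5) without Prdm6, a log2 change of -1.15 (SE 0.66, adjusted p by edgeR = 0.50).

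Ptges (ENSMUSG00000050737.13, chromosome 2, 30889471 to 30929863, minus strand), the inducible terminal synthase of prostaglandin E2, was at 8.48, 3.07, 7.38, 3.28 and 1.72 CPM in Prdm6-deficient DA replicates 1, 2, 5, 6 and 7, and ranged from 4.08 to 9.75 CPM (median 7.90) in control DA. Of the Prdm6-deficient libraries 3 lay below the control range and 2 inside it (log2 fold change -0.67, SE 0.33, adjusted p by edgeR = 0.22). The aortic log2 fold change was -0.13 (SE 0.33, adjusted p by edgeR = 0.97).

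Hpgd (ENSMUSG00000031613.9, chromosome 8, 56294585 to 56321043, plus strand) came nearest to the threshold without passing it. In control aorta replicates 1 to 6 it was at 10.7, 11.1, 9.49, 10.7, 7.78 and 9.78 CPM, and in Prdm6-deficient aorta replicates 1 to 5 at 18.4, 12.6, 36.6, 18.4 and 24.3 CPM. The genotypes did not overlap, with a log2 change of 1.15 (SE 0.28, 95% interval 0.58 to 1.73, adjusted p by edgeR = 0.011). Within the second run it was 0.88 (adjusted p by edgeR = 0.185), and DESeq2 called the gene in the full set of libraries (1.15, adjusted p = 0.0015). In the DA the ranges were 5.59 to 19.7 CPM (median 11.4) in controls and 14.4 to 29.1 CPM without Prdm6, a log2 change of 0.69 (SE 0.27, 95% interval 0.13 to 1.24, adjusted p by edgeR = 0.10). Slco2a1 (ENSMUSG00000032548.14, chromosome 9, 102988712 to 103096002, plus strand) had log2 fold changes of 0.44 in the DA (SE 0.26, adjusted p by edgeR = 0.32) and 0.52 in the aorta (SE 0.26, adjusted p by edgeR = 0.39). Its means were 11.9 ± 5.89 CPM in control DA, 16.2 ± 2.35 in Prdm6-deficient DA, 17.9 ± 6.20 in control aorta and 25.7 ± 4.10 in Prdm6-deficient aorta.

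**Figure D3:**
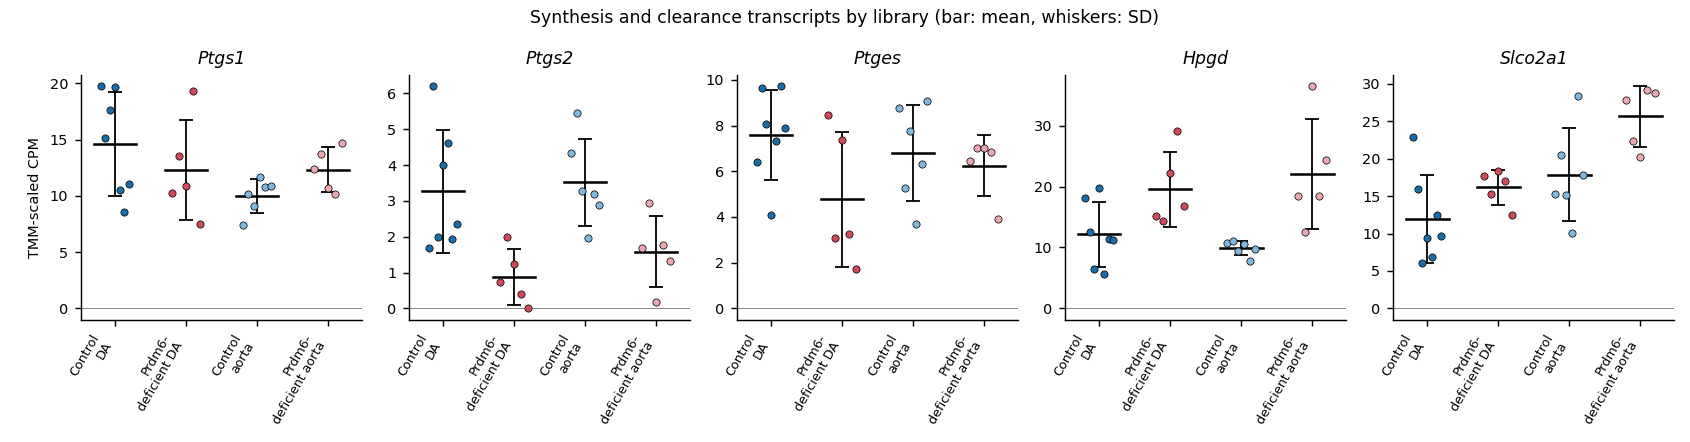
Synthesis and clearance transcripts in TMM-scaled CPM (y axes, 1 scale per gene) in each of the 23 libraries, by group, with points for libraries, bars for means and whiskers for SDs. Hpgd in Prdm6-deficient aorta (12.6 to 36.6 CPM) lies above control aorta (7.78 to 11.1 CPM), and the other panels show overlapping genotypes within each vessel.

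The order of the 10 genes per kilobase differed between groups. In control DA, Ptger4 led at 29.3 ± 7.79 CPM per kilobase (SD, n = 7), above and without overlap with Hpgd at 7.24 ± 3.17. After it came Ptgs1 (3.77), Ptger1 (3.4), Ptges (1.93), Slco2a1 (0.879), Ptgs2 (0.713), Ptger3 (0.664) and Ptgir (0.486), each overlapping with its neighbours, and Ptger2 was last. In Prdm6-deficient DA, Hpgd led at 11.6 ± 3.68 CPM per kilobase (SD, n = 5), without overlap with Ptger3 at 4.18 ± 1.39, although by the longest transcript the lowest Hpgd library, at 8.54, was below the highest Ptger3 library, at 10.1. Ptger3, Ptger4 (3.34), Ptger1 (3.22) and Ptgs1 (3.17) overlapped with one another. Ptges, Slco2a1 and Ptgir followed, each overlapping with its neighbours, then Ptgs2 without overlap with Ptgir, and Ptger2.

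In control aorta, Hpgd (5.89 ± 0.720 CPM per kilobase, SD, n = 6) and Ptger4 (4.63 ± 1.93) led and overlapped, and with the longest transcript in place of the union of exons Ptger4 came first. Ptgs1 (2.57) came next without overlap with Ptger4, and was followed by Ptges, Ptger1, Slco2a1, Ptgs2, Ptgir and Ptger3 in an unbroken chain of overlaps. In Prdm6-deficient aorta, Hpgd led at 13.1 ± 5.41 CPM per kilobase (SD, n = 5) without overlap with Ptger1 (5.45), and by the longest transcript the lowest Hpgd library, at 7.49, was below the highest Ptger1 library, at 7.89. Ptger1, Ptger4 (3.89) and Ptgs1 (3.18) followed, each overlapping with its neighbour and Ptger4 above Ptger1 by the longest transcript, and the remaining genes lay at or below 1.90 on average.

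Of the 9 tested members, 2 were called between genotypes in the DA, beside 5.43% of all tested genes. Ptger4 was lower, beside 2.82% of genes called lower, and Ptger3 higher, beside 2.61% called higher. In the aorta, 2 of 9 were called, both higher, beside 2.45% of genes called either way and 1.63% called higher. Between control DA and control aorta 1 of 9 was called, Ptger4, beside 5.36% of genes called and 3.16% called higher in the DA. Between Prdm6-deficient DA and aorta edgeR called 0 of 9, beside 0.267% of all genes, with 2 of 9 at an unadjusted p under 0.05, and DESeq2 called 0 as well. The difference of the Prdm6 effect was called for 1 of 9, beside 2.58%. The median log2 fold change over the 9 was -0.08 in the DA and 0.38 in the aorta, and over all tested genes 0.01 and 0.00. With 9 genes, each of these counts rests on 1 or 2 genes.

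**Figure D4:**
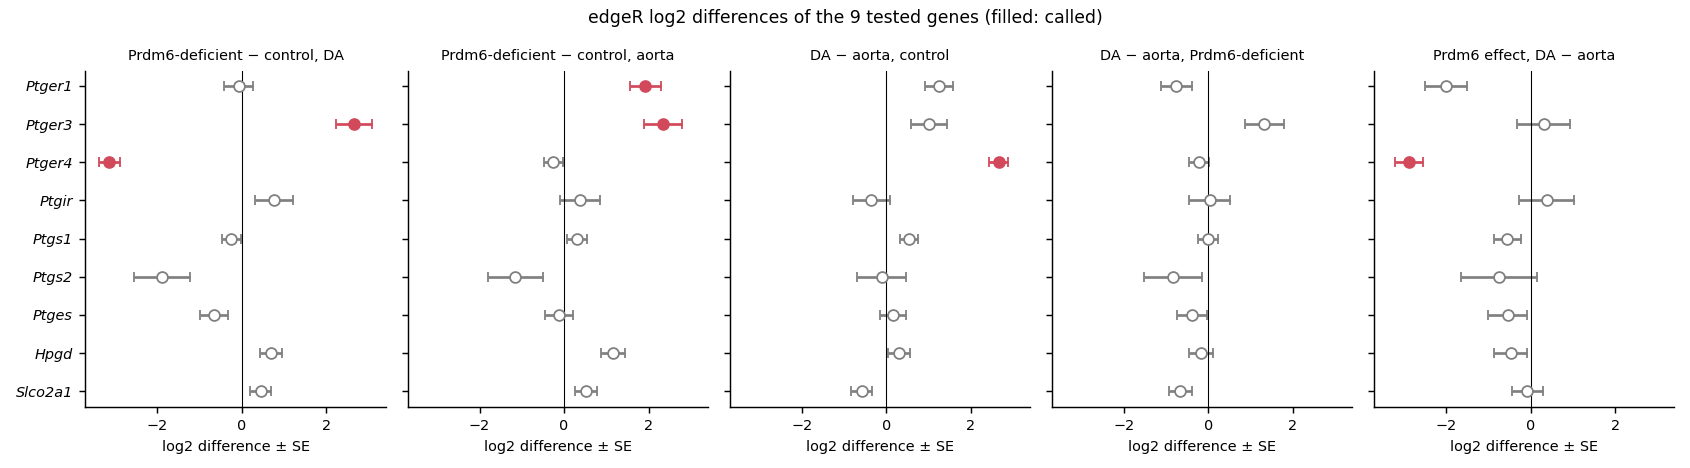
Log2 differences with their SE (x axes) of the 9 tested genes (y axis) in the 5 comparisons, from edgeR. Filled points were called (adjusted p below 0.01 and a log2 difference beyond 0.5). Ptger4 is called in 3 of the 5 panels (-3.13, 2.66 and -2.88), Ptger3 in 2 (2.65 and 2.34) and Ptger1 in 1 (1.92).

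Other genes of the pathway were taken from lists of arachidonate release, other prostanoid synthases, other receptors, other clearance and cAMP signalling. Of these, 9 genes were called in at least 1 comparison. They come from 7 tested release genes, 7 synthases, 3 receptors, 6 clearance and export genes and 33 cAMP genes. The share of all tested genes called in at least 1 comparison was not computed. The 9 genes thus have no background share beside them. The release of arachidonic acid from membranes starts with phospholipase A2, and of 7 tested release genes 1 was called in Prdm6-deficient DA, lower, beside 2.82% of all tested genes called lower. This was Pla2g4a, the cytosolic phospholipase A2, at 56.6 ± 7.19 CPM (SD, n = 7) for control DA against 26.8 ± 5.63 CPM (SD, n = 5) in Prdm6-deficient DA (log2 fold change -1.08, SE 0.14, adjusted p by edgeR = 2.3e-06). The highest Prdm6-deficient DA library, at 36.0 CPM, was below the lowest control, at 46.2 CPM. The aortic log2 fold change was -0.37 (SE 0.14, adjusted p by edgeR = 0.16), and the difference of the Prdm6 effect was -0.71, not called (adjusted p by edgeR = 0.025).

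Of 7 other prostanoid synthases, edgeR and DESeq2 called 0 in the DA (3 at an unadjusted p under 0.05 by edgeR). Ptgis, the prostacyclin synthase, was at 345 ± 26.6 CPM in control and 269 ± 18.1 CPM in Prdm6-deficient DA (log2 fold change -0.36, SE 0.09, adjusted p by edgeR = 0.0077), short of the 0.5 limit on size. Of 3 tested other prostanoid receptors edgeR and DESeq2 called 0 in either vessel (2 in the DA and 1 in the aorta at an unadjusted p under 0.05 by edgeR). For the difference of the Prdm6 effect between DA and aorta, edgeR called 0 of the 3, beside 2.58% of all tested genes. DESeq2 called 1 of the 3 for this difference, beside 614 of all 16463 tested genes. The most abundant of these receptors, Tbxa2r, encodes the thromboxane receptor, which contracts smooth muscle. It had a log2 fold change of -0.49 in the DA (SE 0.15, adjusted p by edgeR = 0.031) and 0.32 in the aorta (SE 0.15, adjusted p by edgeR = 0.34).

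Among 6 tested clearance and export genes 1 was called in the aorta, beside 2.45% of all tested genes called and 1.63% called higher. This was Slco3a1, an organic anion carrier able to transport prostaglandins, which rose in Prdm6-deficient aorta. It was at 33.8, 33.1, 27.8, 37.5, 29.7 and 43.8 CPM in control aorta and at 84.1, 87.7, 75.9, 75.0 and 76.1 CPM in Prdm6-deficient aorta (log2 fold change 1.22, SE 0.15, adjusted p by edgeR = 4.5e-06). In the DA its log2 fold change was -0.37 (SE 0.15, adjusted p by edgeR = 0.12), and the Prdm6 effect differed between vessels by -1.58 (SE 0.21, adjusted p by edgeR = 2.5e-05). It also stood higher in the control DA than in the control aorta (log2 difference 0.81, SE 0.14, adjusted p by edgeR = 1.8e-04). In the DA edgeR called 0 of the 6 between genotypes and DESeq2 called 1, beside 1115 of all 16463 tested genes by DESeq2. Between the Prdm6-deficient vessels edgeR called 0 and DESeq2 called 1, beside 137 of the 16463 by DESeq2.

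Of 33 tested genes of cAMP signalling, the step downstream of EP4 and EP2, 5 were called in the DA, 4 lower and 1 higher, beside 5.43% of all tested genes, with a median log2 fold change of 0.03 over the 33. Of the 33, 19 had a positive and 14 a negative log2 fold change. The list holds 9 tested phosphodiesterases, which break cAMP down, and 3 of these were called, all lower, with overlapping genotypes for Pde3b. Beside this, 2.82% of all tested genes were called lower. In the same contrast 6 of the 8 smooth muscle markers were called lower, and their part in these changes was not tested. Pde4d was at 20.5 ± 4.29 CPM in control and 6.37 ± 3.12 CPM in Prdm6-deficient DA (log2 fold change -1.68, SE 0.36, adjusted p by edgeR = 0.0021), Pde4b at 58.0 ± 19.9 and 29.2 ± 7.08 CPM (-0.99, SE 0.21, adjusted p by edgeR = 0.0014), and Pde3b at 71.4 ± 17.4 and 39.6 ± 7.0 CPM (-0.85, SE 0.17, adjusted p by edgeR = 0.0011). The other gene that fell was Crem, a cAMP-responsive transcription factor (-0.59, SE 0.13, adjusted p by edgeR = 0.0019). The gene that rose was Adcy8, an adenylyl cyclase, which makes cAMP. It was at 2.77 ± 2.67 CPM in control and 14.6 ± 6.32 CPM in Prdm6-deficient DA, with overlapping ranges (log2 fold change 2.42, SE 0.44, adjusted p by edgeR = 3.2e-04).

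In the aorta 2 of the 33 were called, 1 in each direction, beside 2.45% of all tested genes. Pde4b rose from 21.8 ± 3.49 to 43.6 ± 12.5 CPM (log2 fold change 1.0, SE 0.21, adjusted p by edgeR = 0.0027), opposite to its change in the DA, and the difference of the Prdm6 effect was -1.99 (SE 0.29, adjusted p by edgeR = 6.3e-05). Adcy7 fell from 11 ± 1.95 to 5.23 ± 1.19 CPM (log2 fold change -1.07, SE 0.23, adjusted p by edgeR = 0.0033). Between the control vessels 5 of the 33 were called, beside 5.36%. Pde4d (log2 difference 1.90, SE 0.34, adjusted p by edgeR = 2.8e-04), Pde4b (1.41) and Pde3b (0.82) were higher in the DA, and Adcy8 (-2.33) and Adcy5 (-0.76) were lower. Adcy5, another adenylyl cyclase, was at 266 ± 44.8 CPM in control against 371 ± 31.4 CPM in Prdm6-deficient DA. Its log2 fold change of 0.48 was just short of the limit on size (SE 0.10, adjusted p by edgeR = 0.0017), and the difference of the Prdm6 effect of 0.67 was called (SE 0.15, adjusted p by edgeR = 0.0052). Between the Prdm6-deficient vessels edgeR called 0 of the 33 (4 at an unadjusted p under 0.05), and DESeq2 called 1.

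**Figure D5:**
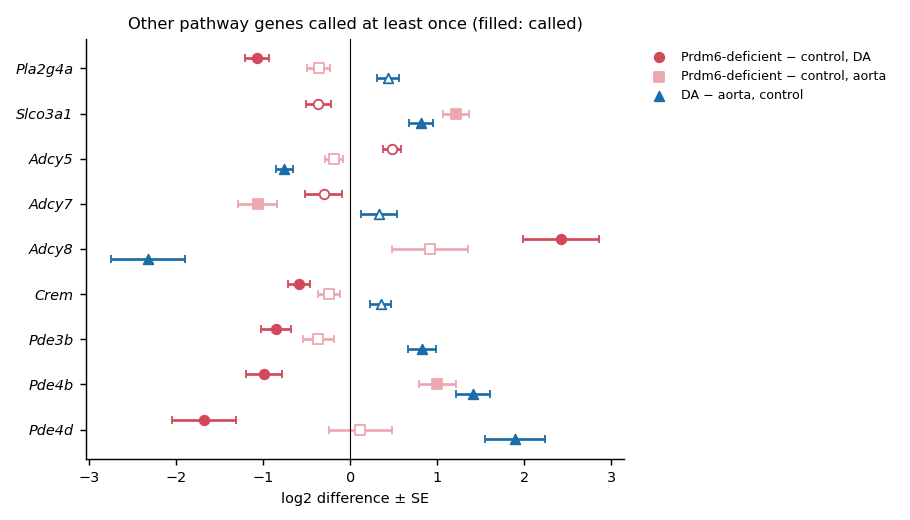
Log2 differences with their SE (x axis) of the 9 pathway genes outside the 10 members that were called in at least 1 comparison (y axis). Circles are the Prdm6 effect in the DA, squares the Prdm6 effect in the aorta, triangles control DA minus control aorta, and filled symbols were called. Pde4b falls in the DA (-0.99) and rises in the aorta (1.0).

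Among the 5 genes whose log2 CPM followed that of Ptger4 most closely over the 23 libraries were Loxl4 (Pearson's r 0.981), Nt5e (0.971), AC160336.1 (0.963) and Gm26809 (0.963), out of 12978 genes whose mean log2 CPM reached 1. These are descriptions across libraries that fall into 4 groups, and they mainly follow the gap between control DA and the other groups. Nt5e, which encodes the ecto-enzyme that makes adenosine, was at 96.9 ± 23.5 CPM in control DA, 14.1 ± 6.60 in Prdm6-deficient DA, 17.6 ± 6.70 in control aorta and 15.1 ± 5.50 in Prdm6-deficient aorta. Loxl4, a lysyl oxidase of the matrix, was at 42.8 ± 11.1, 3.88 ± 1.63, 6.20 ± 2.68 and 3.75 ± 0.716 CPM in the same order. In the 13 control libraries alone, Nt5e was the only one of the 5 still among the closest 5.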

How the data were processed

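RNA-Seq libraries of mouse DA and ascending aorta were grouped by tissue and genotype from the sample labels. The authors filtered the reads, aligned them to mm10 with STAR and estimated gene levels with RSEM, both at default parameters. Their versions are not given in the sources used here. What the authors deposited is a table of RSEM expected counts, 1 row for each GENCODE gene, without normalization. Of 24 samples in the labels, 23 have a column and 0 columns were unmatched.

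Expected counts were rounded and tested with edgeR 4.0.16 (R 4.3.3): filterByExpr, TMM scaling, 1 mean per group over 23 libraries, quasi-likelihood test and Benjamini-Hochberg adjustment over 16463 genes. CPM are TMM-scaled. Symbols, coordinates and exon unions came from GENCODE M21, promoters from RefSeq (GRCm38.p6). Alternatives were DESeq2 1.42.0, other scaling and filters, subsets, covariates and leaving out each library.

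Members and gene lists were chosen with earlier results of these data known. Named genes are the 10 members, pathway genes called in at least 1 comparison, Prdm6, and the 5 genes closest to Ptger4. Ptgis, Tbxa2r and Ttc33 were added after their values were seen. Some results are not reported here. Total counts were 15163974 to 22610547 per library, and limits from counts cover counting error only. The procedure was tested on simulated data. Single-embryo libraries of both vessels from the same embryo had correlations of their deviations from group means of -0.02 to 0.08 (8 pairs). In a search for libraries deposited more than once, chi-square values per gene were 15.6 to 115 over 56 within-group pairs, and no such pair was found.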

Additional observations from a re-analysis of the deposited data

Results flagged for a closer look

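The Prdm6 effect differed between DA and aorta, by the test of the difference itself, for 4 of the members and named pathway genes (DA minus aorta, log2 scale, edgeR). Of these, 1 was among the 9 tested members, beside 2.58% of all tested genes called. The others were among the 9 pathway genes named for being called in at least 1 comparison, this one included. Their number follows in part from that choice. The differences were -2.88 for Ptger4, -1.58 for Slco3a1, -1.99 for Pde4b and 0.67 for Adcy5.

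Dixon's test, which flags about 1 in 20 groups by chance, flagged a single library in 8 of 80 groups of values. The 8 include the Ptger2 groups below, whose flags were fixed in advance, so their number is not comparable with that rate. Ptger4 was at 55.9 CPM in control aorta replicate 4, where the others were at 21.97 to 32.2 CPM. Ptgir was at 6.23 CPM in Prdm6-deficient DA replicate 1, with the others at 1.72 to 2.10 CPM. Ptges was at 3.90 CPM in Prdm6-deficient aorta replicate 5, with the others at 6.46 to 7.02 CPM. Ptger2 was at 0.139 CPM (3 counts) in control DA replicate 1 and at 0.230 CPM (4 counts) in Prdm6-deficient DA replicate 6. It was at 0.337 CPM (7 counts) in control aorta replicate 4, and at 0 in the other libraries of these 3 groups. With all others at 0, any single value above 0 is flagged whatever its size. Adcy5 was at 426 CPM in Prdm6-deficient DA replicate 5, with the others at 349 to 364 CPM, and Pde3b at 51.9 CPM in Prdm6-deficient DA replicate 6, with the others at 34.5 to 37.9 CPM.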

How the results depend on the processing

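Over all results and settings, 1604 of 1689 alternative values were scored as unchanged. These include counts of genes and shares of Ptger4, which have no direction and were scored by their closeness to the main value. Most alternatives leave out 1 library and share most of their data with the main fit, so that little change could be seen in them. Of the 1494 alternative log2 fold changes of members, 1430 kept their direction and their side of the threshold. Among the 1494, 1296 belong to changes not called in the main fit, which count as unchanged by staying uncalled with the same sign. For the 6 called log2 fold changes of members this held in 193 of 198, with 5 losing the call and 0 changing direction. These 5 were Ptger3 in the DA within the first and within the second run, Ptger3 and Ptger1 in the aorta within the second run, and Ptger3 in the aorta with the replicate number as a block (2.37, adjusted p by edgeR = 0.0113). The number of members called in the DA was 1 in the first run and 1 in the second, in place of 2, and in the aorta 0 in the second run, 1 with the replicate block, and 3 with no filter on low counts, with DESeq2 and with only the groups compared, Hpgd being the gene added. Between control DA and aorta it was 2 with no filter on low counts and 2 with DESeq2, in place of 1, for the difference of the Prdm6 effect likewise 2 and 2, in place of 1, and between the Prdm6-deficient vessels 1 when only these groups were fitted, in place of 0. Of the 5 genes closest to Ptger4, 3 remained by Spearman correlation and 1 in control libraries alone. The cause of these changes was not tested. Fits within a run hold fewer libraries than the main fit, and the part of this was not tested either.

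Leaving out 1 library at a time gave 2 to 2 members called in the DA, 2 to 3 in the aorta, 1 to 2 between control DA and aorta, and 1 to 2 for the difference of the Prdm6 effect. Ptger1 joined the calls between control vessels without control DA replicate 1, 2 or 4, Prdm6-deficient DA replicate 7 or control aorta replicate 5, and Ptger3 joined without control DA replicate 5. For the difference of the Prdm6 effect Ptger1 joined without control DA replicate 1, 2 or 4 or Prdm6-deficient DA replicate 5. Hpgd joined in the aorta without control DA replicate 1, 3, 4 or 5 or Prdm6-deficient aorta replicate 2.

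Direction changed only for log2 differences that were not called. In leaving out 1 library these ranged from -0.32 to 0.15 for Ptger1 in the DA, from -0.33 to 0 for Ptger4 in the aorta and from -0.35 to 0.06 for Ptgs2 between control vessels. Between Prdm6-deficient vessels they ranged from -0.52 to 0.28 for Ptgir, from -0.23 to 0.13 for Ptgs1 and from -0.36 to 0.09 for Hpgd, and for the difference of the Prdm6 effect from -0.17 to 0.64 for Ptgir and from -0.26 to 0.16 for Slco2a1. The other changes of direction were Ptger1 in the DA with the replicate block (0), Ptgir in the aorta within the second run (-0.26), and the following. Between Prdm6-deficient vessels Ptgir was at -0.58 without pooled embryos, -0.02 with the run as a covariate, -0.33 in the first run and -0.47 with the embryo as a block. Ptgs1 was at 0 with RLE scaling, 0 with DESeq2, 0.02 without pooled embryos, 0.38 in the first run and 0.08 with the replicate block, and Hpgd at 0.04 without pooled embryos. For the difference of the Prdm6 effect Ptgir was at -0.22 without pooled embryos and -0.3 with the embryo as a block, and Slco2a1 at 0.05 without the Cre-carrying controls.

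Replicate numbers did not pair the libraries: over 28 same-numbered pairs the correlation of deviations ran from -0.05 to 0.13, with 1 pair over 0.1. Comparisons within the first run that need control aorta were not run, since it holds 1 such library. Depth limits Ptger2, and counts of 3 or fewer carry no comparison.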
